A study of Mus musculus with 2 samples.

Results

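Pericytes and vascular smooth muscle cells, the mural cells of blood vessels, were described here in 2 single-cell RNA libraries of mouse inner ear. A barcode with at least 300 detected genes and at most 20% mitochondrial UMIs (unique molecular identifiers, each standing for 1 captured mRNA molecule) was kept. A kept barcode was a member when at least 3 of the 8 genes Rgs5, Kcnj8, Abcc9, Notch3, Des, Acta2, Myh11 and Pdgfrb had a UMI and fewer than 3 of the endothelial genes Cldn5, Flt1, Egfl7, Pecam1 and Cdh5 did. The rule found 1887 members among 42625 kept barcodes, 822 of 22672 in the AAV-Isl1 plus noise library and 1065 of 19953 in the noise-only library. The study gave CBA/CaJ mice aged 4 to 6 weeks an adeno-associated virus (AAV) carrying Isl1, a LIM homeodomain transcription factor, in 1 ear and then exposed them to noise of 105 dB at 1 to 20 kHz for 2 h. Inner ear tissue, labelled as sensory epithelium of the cochlea, was dissociated with trypsin 2 days later. The AAV-Isl1 plus noise group was the injected ears and the noise-only group the untreated opposite ears of the same animals, so every ear had been exposed to noise and the control ear shared its animal with a treated ear. Tissue of 5 mice was pooled into 1 library per group, so no value has a replicate, no test between the groups was made, and every interval covers counting error only. The labels name no promoter or serotype of the virus.

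Pericytes sit in the basement membrane of capillaries, and smooth muscle cells wrap arterioles and arteries, where they contract to set vessel diameter. Smooth muscle cells are known by actin and myosin isoforms such as Acta2 and Myh11, whereas brain and ear capillary pericytes are known by the ATP-sensitive potassium channel made of the subunits Kcnj8 and Abcc9. In the cochlea, pericytes of the stria vascularis and spiral ligament are known for a part in capillary flow and the blood-labyrinth barrier. Notch3, a receptor for ligands on endothelium, and Pdgfrb, the receptor for platelet-derived growth factor B, act in both kinds of mural cell, and Rgs5 limits G-protein signals there.

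Members were called pericyte cells when the UMIs of Kcnj8 and Abcc9 exceeded those of Acta2 and Myh11, and Acta2/Myh11 cells when Acta2 and Myh11 together had at least 2 UMIs and exceeded Kcnj8 and Abcc9. This gave 322 pericyte cells, 389 Acta2/Myh11 cells and 111 undivided members in the AAV-Isl1 plus noise library. The noise-only library held 368 pericyte cells, 566 Acta2/Myh11 cells and 131 undivided members. The members held 1191985 UMIs in the AAV-Isl1 plus noise library and 1685189 in the noise-only library, with medians of 1044 and 1295 UMIs. Each library listed far more barcodes (24209 and 21068) than the about 1600 cells loaded, so whether each barcode is a separate whole cell was not tested. The libraries shared 145 barcode sequences, which 7 members of the AAV-Isl1 plus noise library and 11 of the noise-only library carried. The doublet caller Scrublet marked no barcode at its automatic thresholds, and so did not work here. The 6% of kept barcodes with the highest doublet scores held 72 members (8.76%) of the AAV-Isl1 plus noise library and 139 (13.1%) of the noise-only library, against 6.27% and 6.14% of the other kept barcodes. As a check of the labelled tissue, 8 hair cell markers summed to 1235 and 1012 UMIs per 1000000 UMIs of the group (CPM) in the other kept barcodes of the AAV-Isl1 plus noise and noise-only libraries, and to 627 and 281 CPM in members.

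The promoters of 3 genes are shown. Acta2 and Kcnj8 set the split, so they are low and high in pericyte cells by choice. Myl9, a myosin light chain, took no part in the split and was low in pericyte cells. Each sequence is the 250 bases before the RefSeq start (GRCm38.p6), and capitals mark CArG boxes, the binding motif of serum response factor, searched on both strands with at most 1 mismatch.
Acta2, chr19:34255374-34255623, minus strand: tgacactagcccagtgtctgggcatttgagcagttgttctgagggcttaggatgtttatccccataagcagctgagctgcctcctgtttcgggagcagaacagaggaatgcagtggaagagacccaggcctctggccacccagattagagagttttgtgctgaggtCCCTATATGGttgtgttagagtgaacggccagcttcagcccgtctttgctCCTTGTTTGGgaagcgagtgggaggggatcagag
Myl9, chr2:156775214-156775463, plus strand: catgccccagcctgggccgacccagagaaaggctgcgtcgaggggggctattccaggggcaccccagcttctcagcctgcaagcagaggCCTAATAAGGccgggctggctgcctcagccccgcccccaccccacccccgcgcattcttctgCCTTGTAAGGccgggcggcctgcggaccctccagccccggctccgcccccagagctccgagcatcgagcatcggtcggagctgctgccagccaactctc
Kcnj8, chr6:142571615-142571864, minus strand: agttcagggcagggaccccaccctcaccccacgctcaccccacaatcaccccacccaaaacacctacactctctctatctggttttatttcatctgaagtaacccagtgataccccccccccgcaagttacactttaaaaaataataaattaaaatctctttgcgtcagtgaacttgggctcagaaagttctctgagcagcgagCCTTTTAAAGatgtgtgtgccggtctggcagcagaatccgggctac
The windows of Cnn1, Pln, Abcc9, Rgs5, Des and Notch3 were also looked at and held no box with at most 1 mismatch. The 3 shown are thus those with a box and do not stand for the rest. The Acta2 window held boxes with 1 mismatch starting 84 and 34 bases before the start. The Myl9 window held an exact box starting 161 bases and a box with 1 mismatch starting 99 bases before the start, and the Kcnj8 window a box with 1 mismatch starting 46 bases before it. An exact box was in 3 of 22 promoters (13.6%) of the contractile gene list described below, those of Myl6, Myl9 and Vcl, and in 0 of 27 promoters of the pericyte gene list. With at most 1 mismatch the counts were 8 of 22 (36.4%) and 5 of 27 (18.5%). Of all 32851 RefSeq promoters of that length, 1.47% held an exact box and 18.6% a box with at most 1 mismatch. A match describes the letters and is no site of binding.

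The 8 rule genes chose the members, so their levels are given as a description. Rgs5 had 3071 CPM in AAV-Isl1 plus noise members and 3118 CPM in noise-only members. Acta2, the smooth muscle actin, had 3031 CPM in AAV-Isl1 plus noise members and 5461 CPM in noise-only members. Myh11, the smooth muscle myosin heavy chain, had 1066 and 1819 CPM in the AAV-Isl1 plus noise and noise-only members. The other rule genes lay lower. Pdgfrb had 482 and 509 CPM, Notch3 had 462 and 499 CPM, and Abcc9 had 348 and 303 CPM in the AAV-Isl1 plus noise and noise-only members. Kcnj8 had 237 and 286 CPM, and Des, the intermediate filament desmin, had 169 and 285 CPM in the same order of libraries. The same genes were far lower in all other kept barcodes, where Rgs5 had 80.9 and 75.8 CPM and Acta2 73.6 and 80.7 CPM.

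Acta2, Myh11, Kcnj8 and Abcc9 chose the members and split them, so their shares are given as a description, and a member with 1 UMI of the 4 genes can lie only at 0 or 100%. Of the 760 AAV-Isl1 plus noise members with any UMI of Acta2, Myh11, Kcnj8 or Abcc9, 312 had at most 10% of those UMIs from Acta2 and Myh11, 410 had at least 90%, and 38 (5.00%) lay between. Of the 984 such noise-only members, 346 had at most 10%, 568 at least 90%, and 70 (7.11%) lay between. Of the members with Acta2, 353 of 420 (84.0%) in the AAV-Isl1 plus noise library and 520 of 611 (85.1%) in the noise-only library also had Myh11. Kcnj8 was seen with Abcc9 in 120 of 202 and 165 of 288 members with Kcnj8, and with Acta2 in only 13 and 41. Many assignments rest on little: 133 pericyte cells of the AAV-Isl1 plus noise library and 137 of the noise-only library rest on 1 UMI, and 257 and 280 members lie within 1 UMI of the split.

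**Figure D1:**
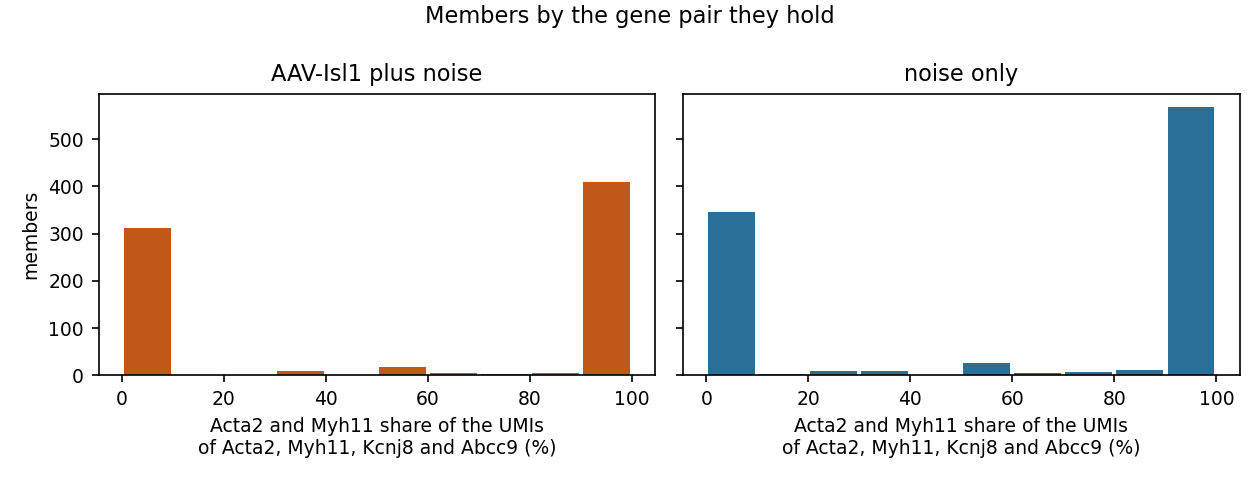
Members of the AAV-Isl1 plus noise library (left) and the noise-only library (right) by the share, in percent, of their Acta2, Myh11, Kcnj8 and Abcc9 UMIs that came from Acta2 and Myh11. Bars count members in bins of 10 percentage points, and the outer bins hold all but 38 and 70 of the members with any of the 4 genes.

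Within the 2 kinds the other rule genes were not alike. Rgs5 had 3854 and 5436 CPM in pericyte cells of the AAV-Isl1 plus noise and noise-only libraries, and 1971 and 1731 CPM in Acta2/Myh11 cells. Pdgfrb had 681 and 811 CPM in pericyte cells, and 257 and 306 CPM in Acta2/Myh11 cells. Both are rule genes, and a pericyte cell without Acta2 or Myh11 needs others of the rule genes to be a member, so these levels and the shares below are set in part by the rule. Notch3 had 329 and 447 CPM in pericyte cells, and 493 and 488 CPM in Acta2/Myh11 cells of the AAV-Isl1 plus noise and noise-only libraries. Des had 126 and 198 CPM in pericyte cells, and 184 and 315 CPM in Acta2/Myh11 cells. Rgs5 was seen in 97.8% and 95.9% of pericyte cells, and in 50.4% and 46.1% of Acta2/Myh11 cells, of the AAV-Isl1 plus noise and noise-only libraries. With cells thinned to 1000 UMIs the shares were 81.0% and 86.7% of 142 and 150 pericyte cells, and 36.0% and 36.9% of 247 and 488 Acta2/Myh11 cells. For scale, 5.78% of 519 and 3.64% of 110 erythroid barcodes, which should lack Rgs5, had a UMI of it, at medians of 2306 and 3058.5 UMIs. The median pericyte cell held 884.5 and 881.5 UMIs, and the median Acta2/Myh11 cell 1144 and 1550.

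**Figure D2:**
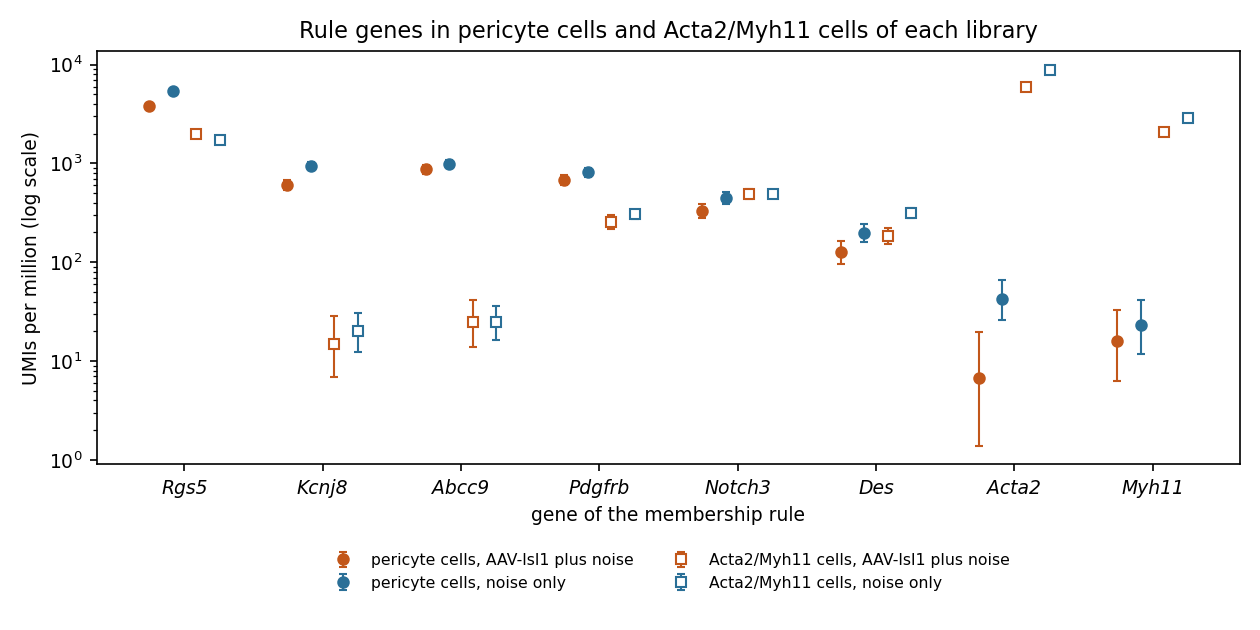
Level of each rule gene (CPM, log axis) in pericyte cells (filled circles) and Acta2/Myh11 cells (open squares) of the AAV-Isl1 plus noise library (orange) and the noise-only library (blue), with exact 95% Poisson intervals. Kcnj8, Abcc9, Acta2 and Myh11 set the split, Rgs5 lay between 3854 and 5436 CPM in pericyte cells and between 1731 and 1971 CPM in Acta2/Myh11 cells, and Notch3 lay between 329 and 493 CPM in both kinds.

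Levels on the 2 sides of the threshold of 3 rule genes are given as a description, and Rgs5 is itself among the genes counted. Barcodes just outside it, with 2 rule genes, numbered 612 in the AAV-Isl1 plus noise library and 589 in the noise-only library, had 1448 and 1267 CPM of Rgs5, and had 2019 and 1723 CPM of Tagln, an actin-binding protein of smooth muscle outside the rule. Members just inside, with 3 rule genes, numbered 482 and 502 and had 2520 and 2384 CPM of Rgs5 and 2854 and 5196 CPM of Tagln. The 248 and 352 members with 4 rule genes had 3357 and 3197 CPM of Rgs5. The 44 barcodes with enough mural genes but 3 or more endothelial genes, 22 in each library, were left out by the rule.

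To check the name against genes outside the rule, members were clustered on all genes but the rule genes and mitochondrial genes. Cluster 1 (540 members) was led by Pln, Fbxl22, Sh3bgr, Lrrc10b, Cnn1 and Tagln, and 99.1% of it were Acta2/Myh11 cells. Cluster 2 (531 members) had Mnd1, Rem1, Lurap1l, Ddit4l, Arhgdib, Ndufa4l2 and Col4a4 among its 10 leading genes, and 63.5% of it were pericyte cells. Both had genes of the pericyte or contractile list among their 10 leading genes, and by the fixed markers cluster 1 is smooth muscle-like and cluster 2 pericyte-like. The other 10 clusters, with 816 of the 1887 members, were led by genes of other cell types or of no type listed. Cluster 3 (306 members) was led by Ddn, Otop1 and Ncmap, with Erbb3, a glial receptor gene, cluster 4 (208) by Emilin2, Inmt and Tnfaip6, cluster 5 (75) by the chemokines Ccl19 and Ccl11, and cluster 6 (62) by Resp18 and Cntnap5a with Chga and Syt2. The last 6 were smaller and included 22 members led by Mrc1 and Pf4, 27 led by Alas2 and 9 led by Camp and Ngp, the last all from the AAV-Isl1 plus noise library. Clusters 1 and 2 held 391 (47.6%) of the AAV-Isl1 plus noise members and 680 (63.8%) of the noise-only members. The medians in clusters 1 and 2 were 785 and 1055 UMIs, and outside them 1458 and 1786. Values within clusters 1 and 2 are therefore given beside those of all members, an alternative chosen after the clusters were seen, and since the clustering used the same genes, those values are descriptions.

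**Figure D3:**
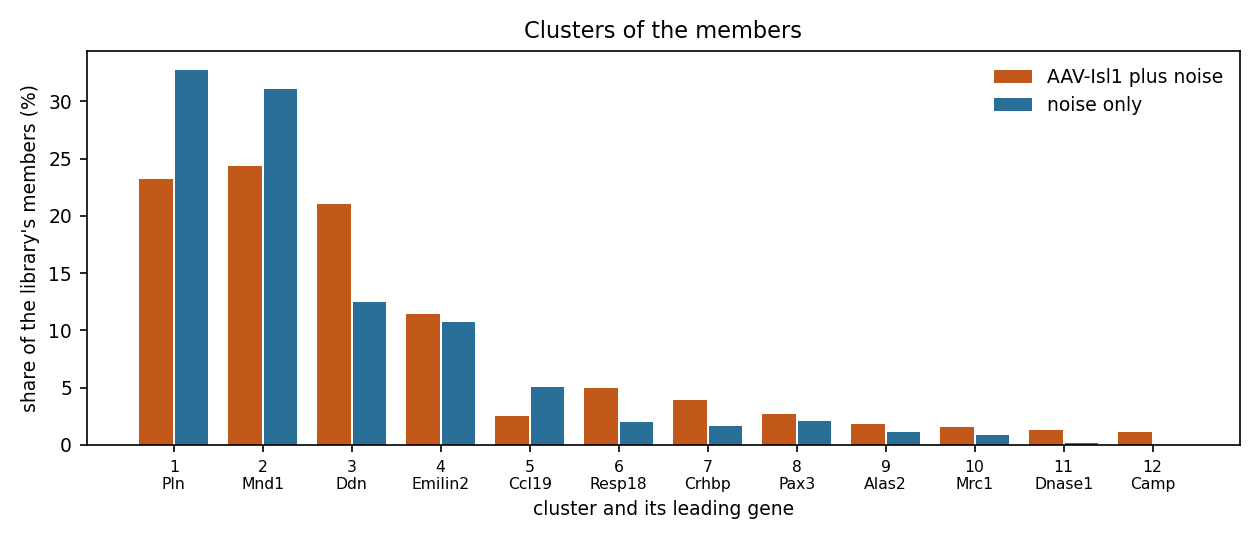
Share of each library's members (percent, bars) in the 12 clusters, with each cluster's leading gene, for AAV-Isl1 plus noise (orange) and noise only (blue). Clusters 1 and 2 held 47.6% of AAV-Isl1 plus noise members and 63.8% of noise-only members.

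Genes outside the rule were compared between members and all other kept barcodes. A gene is called higher or lower where its CPM differed at least 1.5-fold with at least 100 UMIs in both groups together. Of 14500 genes so measured, 39.4% passed 1.5-fold, 9.84% higher and 29.5% lower in members. Of the list of contractile genes, 23 of 24 measured were higher (median log2 ratio 3.71), and of the pericyte list 16 of 19 (median 3.87), against a median of -0.21 over all genes. Map3k7cl had 94.8 and 138 CPM in members of the AAV-Isl1 plus noise and noise-only libraries, against 1.07 and 1.71 CPM in the other barcodes, the highest ratio of the genes named (87.2). Tagln had 2664 and 4839 CPM in members against 79.4 and 94.9 CPM elsewhere. Next by ratio came Pdlim3, a Z-disc protein, at 64.6, Slc38a11, an amino acid transporter, at 63.5, and Pln, phospholamban, the inhibitor of the sarcoplasmic calcium pump, at 58.4. Higd1b and Ndufa4l2, both known as pericyte genes, had ratios of 49.2 and 45.7. Mustn1 (48.2), Aoc3, an amine oxidase on smooth muscle (46.8), and Aspn, a small matrix proteoglycan (42.6), followed. The forkhead factor gene Foxs1 (40.6), the tropomyosin gene Tpm2 (38.6) and the calponin gene Cnn1 (41.1) were in the same range. Fbxl22, a sarcomeric F-box protein (37.3), Gja4, connexin 37 (34.9), and Rrad, a Ras-related GTPase (33.2), were nearby. The last 4 of the 20 highest were Ccdc3, Steap4, Gucy1b1 and Filip1l, with ratios between 30.2 and 33.1. Mural transcription factors were higher in 24 of 29 measured (median log2 1.22), basement membrane genes in 15 of 23 (1.30) and immediate early genes in 20 of 29 (0.94). By contrast 7 of 21 genes of MHC class I and antigen processing were lower and 0 higher (median -0.36), and 8 of 36 interferon response genes were lower and 3 higher (median -0.42).

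Pericyte cells held far fewer transcripts of the contractile apparatus than Acta2/Myh11 cells in both libraries. Of 4125 measured genes outside the rule, 23.2% passed 1.5-fold, 13.4% higher and 9.84% lower in pericyte cells, with a median log2 ratio of 0.09. Of the 21 contractile genes measured, 20 were lower in pericyte cells and 0 higher, with a median log2 ratio of -2.65. Within clusters 1 and 2, where 34.4% of 1614 genes passed 1.5-fold (15.8% higher and 18.6% lower), 19 of the 21 were lower, with a median of -2.62. Tagln had 47.4 and 113 CPM in pericyte cells of the AAV-Isl1 plus noise and noise-only libraries, against 5156 and 7681 CPM in Acta2/Myh11 cells, a ratio of 0.0120 (interval 0.00941 to 0.0151). Crip1, a small LIM protein, had 379 and 509 CPM in pericyte cells, against 4200.4 and 5891 CPM in Acta2/Myh11 cells (0.0845). Tpm2 had 250.3 and 306 CPM in pericyte cells, against 2692 and 3952 CPM in Acta2/Myh11 cells (0.0800). All 3 genes were far lower in pericyte cells of both libraries, and Tagln was the lowest of them there. The light chain genes differed less. Myl9 had 429 and 653 CPM in pericyte cells against 2493 and 3688 CPM in Acta2/Myh11 cells (0.167). Myl6, which many cell types share, had 1013 and 1013 CPM in pericyte cells against 4162 and 5457 CPM in Acta2/Myh11 cells (0.203), and Tpm1 had a ratio of 0.150.

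The genes with the lowest ratios had few UMIs in pericyte cells. Pln had 1 UMI in pericyte cells of both libraries together, against 940 UMIs in Acta2/Myh11 cells, a CPM ratio of 0.00192 (interval 4.86e-05 to 0.0107). Cnn1 had 1 UMI in pericyte cells against 211 in Acta2/Myh11 cells (0.00856, interval 0.000216 to 0.0482). Asb2, a subunit of a ubiquitin ligase that targets filamins, had 0 UMIs in pericyte cells against 116 in Acta2/Myh11 cells. Susd5 had 0 against 141, and Timp4, an inhibitor of metalloproteinases, 0 against 124. With 3 UMIs over both libraries as the limit that a count of 0 allows, Asb2, Susd5 and Timp4 were at least 21.4-fold, 26.0-fold and 22.9-fold lower in pericyte cells. Fbxl22, the splicing regulator Rbm24 and Sh3bgr had 2 UMIs each and Map3k7cl and the M-band protein Myom1 3 each in pericyte cells, against 250, 164, 121, 333 and 163 in Acta2/Myh11 cells. Their ratios were 0.0144 (interval 0.00174 to 0.0527), 0.0220 (0.00265 to 0.0808), 0.0299 (0.00357 to 0.110), 0.0163 (0.00334 to 0.0480) and 0.0332 (0.00678 to 0.0989). The actin scaffolds Palld and Synpo2 had ratios of 0.0184 and 0.0439, and Sorbs2, an adaptor at actin junctions, 0.0365. Eln, which encodes elastin of arterial walls, had 4.51 and 4.26 CPM in pericyte cells, against 74.7 and 127 CPM in Acta2/Myh11 cells. These 14 genes and Tagln were at least 1.5-fold lower in each library, as the rule that named them required.

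Pericyte cells held more transcripts of known pericyte genes and of several matrix genes. Of 16 pericyte genes measured outside the rule, 10 were higher and 2 lower (median log2 0.79), and within clusters 1 and 2 the counts were 9 higher and 1 lower of 13 (1.13). Vtn, which encodes vitronectin, a matrix protein that pericytes secrete, had 959 and 1677 CPM in pericyte cells of the AAV-Isl1 plus noise and noise-only libraries, against 124 and 249.33 CPM in Acta2/Myh11 cells (6.52, interval 5.77 to 7.38). Ndufa4l2, a mitochondrial complex protein, had 426 and 768 CPM in pericyte cells, against 236 and 246 CPM in Acta2/Myh11 cells (2.49). Higd1b had 573 and 857 CPM in pericyte cells, against 363 and 423 CPM in Acta2/Myh11 cells (1.79). All 3 were higher in pericyte cells of both libraries, and the transcription factor gene Ebf1 also had a ratio of 1.67. The soluble guanylate cyclase subunits, which read nitric oxide, parted: Gucy1b1 had a ratio of 1.53 and Gucy1a1 of 0.876. The 2 lower genes were Rgs4 (0.577), a limiter of G-protein signals, and Mcam (0.208), a cell adhesion protein picked after its value was seen.

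Steap4, a metalloreductase, had the highest ratio of the genes named by the rule (14.2, interval 9.40 to 22.2), with 147 and 296 CPM in pericyte cells against 14.9 and 16.2 CPM in Acta2/Myh11 cells. Col4a4, a collagen IV chain, had 129 and 232 CPM in pericyte cells against 18.2 and 19.1 CPM in Acta2/Myh11 cells (9.67). Ifitm1, an interferon-induced membrane protein, had 672 and 1045 CPM in pericyte cells against 79.6 and 117 CPM in Acta2/Myh11 cells (8.38). These ratios were wider in clusters 1 and 2, at 36.3, 24.4 and 21.954. Moxd1, a copper monooxygenase, had a ratio of 8.23 and the protocadherin gene Pcdh19 of 5.73. Mnd1, which acts in meiotic recombination, had 5.38, the globin gene Cygb 5.21 and the laminin gene Lama2 5.13. Cpm (carboxypeptidase M), Tgfbi (a secreted matrix protein) and Rem1 (a GTPase that restrains calcium channels) had ratios of 5.00, 4.95 and 4.86. Ecrg4, a secreted peptide precursor, had 5.31 over all members and 12.1 CPM in pericyte cells of clusters 1 and 2, against 3.72 CPM in Acta2/Myh11 cells there. Emcn, an endothelial sialomucin gene outside the endothelial genes of the rule, had 133 and 240.4 CPM in pericyte cells against 31.5 and 45.9 CPM in Acta2/Myh11 cells (4.64). The 10 markers of the endothelial list summed to 309 and 328 CPM in pericyte cells against 97.9 and 109 CPM in Acta2/Myh11 cells of the AAV-Isl1 plus noise and noise-only libraries. Emcn is itself 1 of the 10, and the other 9 summed to 176 and 87.2 CPM in pericyte cells against 66.4 and 63.0 CPM in Acta2/Myh11 cells. Their part in the Emcn value was not tested.

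**Figure D4:**
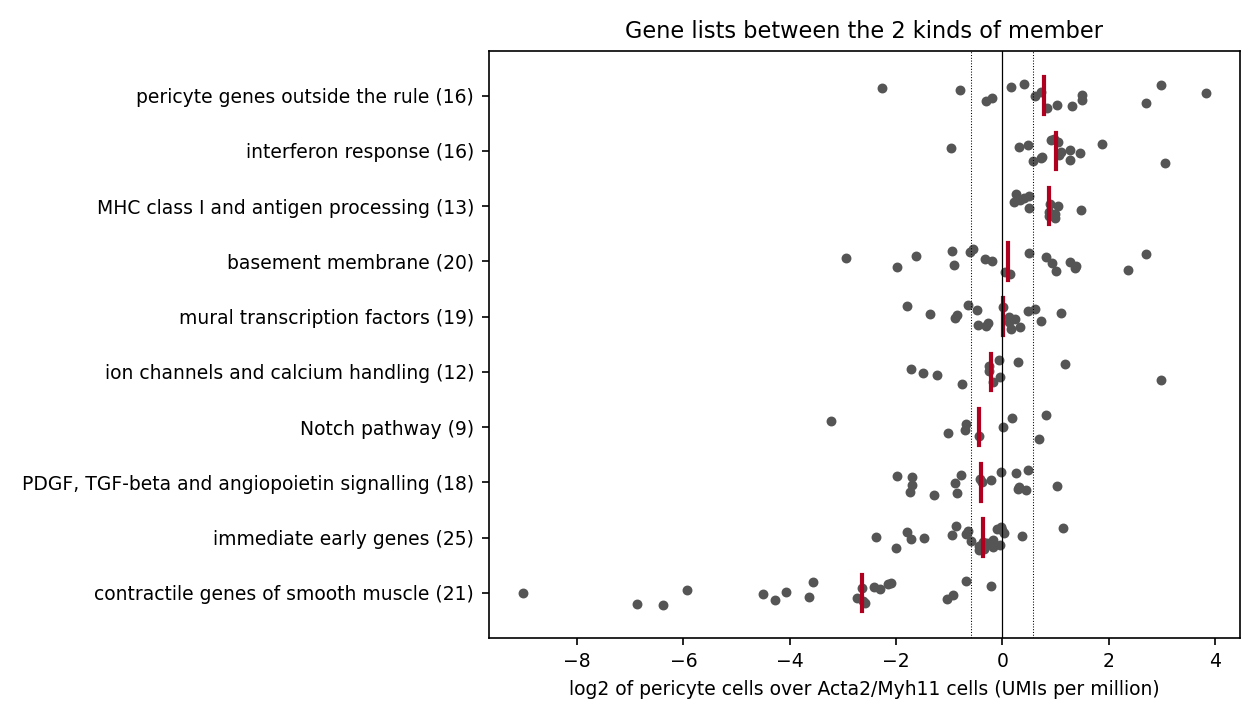
Log2 ratio of pericyte cells over Acta2/Myh11 cells for each measured gene of 10 lists (grey points, number of genes in brackets) with the list median (red bars), both libraries together. Dotted lines mark 1.5-fold, and the contractile genes reach -9.02 while the pericyte and interferon lists have medians of 0.79 and 1.01.

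Among receptors for vasoactive signals, 2 of 7 measured were higher and 2 lower in pericyte cells, and in clusters 1 and 2 1 of 4 was higher and 2 lower. Ednrb, the endothelin B receptor, had 129 and 200 CPM in pericyte cells of the AAV-Isl1 plus noise and noise-only libraries, against 51.4 and 26.7 CPM in Acta2/Myh11 cells (4.62). In clusters 1 and 2 it had 57 UMIs in pericyte cells and 10 in Acta2/Myh11 cells, below the minimum of 100. Npy1r, the neuropeptide Y receptor of sympathetic vasoconstriction, had 4.51 and 17.022 CPM in pericyte cells, against 87.9 and 138 CPM in Acta2/Myh11 cells (0.0917). Ramp1, the subunit that forms the CGRP receptor, also stood lower in pericyte cells (0.298). Ednra, the endothelin A receptor, and S1pr3, a sphingosine 1-phosphate receptor, had ratios of 0.945 (interval 0.746 to 1.19) and 1.32 (1.04 to 1.68) over all members. Their ratios in clusters 1 and 2 were 1.499 (1.09 to 2.04) and 1.76 (1.27 to 2.43), of which that of S1pr3 passed 1.5-fold.

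Of 12 ion channel and calcium handling genes, 2 were higher and 4 lower in pericyte cells, and in clusters 1 and 2 2 of 8 were higher and 4 lower. Atp2a2, the sarcoplasmic calcium pump, had 268 and 223 CPM in pericyte cells, against 627 and 724 CPM in Acta2/Myh11 cells (0.356). The IP3 receptor gene Itpr1 (0.428) and the plasma membrane calcium pump gene Atp2b4 (0.304) were lower too. Regulators of contraction through cyclic nucleotides and protein kinases were lower in 7 of 22 and higher in 2, and in 6 and 1 of 18 in clusters 1 and 2. The kinase gene Rock1 had a ratio of 0.372 over all members. The transporter list had 3 of 8 higher and 2 lower over all members, with Slc12a2, the sodium-potassium-chloride cotransporter, at 2.37 and Slc38a11 at 0.541. In clusters 1 and 2, 1 of 2 was higher, Slc12a2, and 1 lower, Slc38a11.

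Of 9 Notch pathway genes, 4 were lower and 2 higher in pericyte cells. In clusters 1 and 2 the counts were 2 lower, Hes1 and Nrip2, and 2 higher, Notch1 and Dtx3, of 7. Hes1, a Notch target repressor, had 298 and 417 CPM in pericyte cells, against 655 and 771 CPM in Acta2/Myh11 cells (0.493). Nrip2 had a ratio of 0.107 and the target Hey2 of 0.616, whereas the receptor Notch1 and the regulator Dtx3 had 1.62 and 1.76, and the target Heyl 1.01. Of 18 PDGF, TGF-beta and angiopoietin genes, 8 were lower and 1 higher, and 7 of 9 were lower in clusters 1 and 2. The ligand Pdgfa had 92.5 and 104 CPM in pericyte cells, against 201 and 261 CPM in Acta2/Myh11 cells (0.413), Ltbp1, which anchors latent TGF-beta, had a ratio of 0.255 and the BMP target Id1 0.539. Id3 had 0.862.

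Of 20 basement membrane genes, 8 were higher and 6 lower in pericyte cells, and in clusters 1 and 2 5 of 11 were higher and 2 lower. Sparc, a collagen-binding matrix protein, had 979 and 1296 CPM in pericyte cells against 627 and 658 CPM in Acta2/Myh11 cells (1.77), whereas its relative Sparcl1 had 1324 and 1613 CPM in pericyte cells against 3802 and 4972 CPM in Acta2/Myh11 cells (0.324). The collagen chain Col4a1 (1.11) and the integrin Itga1 (1.42) lay within 1.5-fold over all members, and Itga1 had 1.92 in clusters 1 and 2. Fibrillar matrix genes were higher in 3 of 14 and lower in 4 (2 and 4 of 8 in clusters 1 and 2), with the calcification inhibitor Mgp at 1.41 and the protease inhibitor Timp3 and the protease Adamts1 at 0.609 and 0.361. Of 19 mural transcription factors, 3 were higher and 5 lower over all members. In clusters 1 and 2, 6 of 15 were higher (Ebf1, Nr2f1, Nr2f2, Prrx1, Tbx18 and Tbx2) and 2 lower (Klf2 and Klf4), with a median log2 ratio of 0.43. The flow-responsive Klf2 and its relative Klf4 had ratios of 0.288 and 0.637, Mef2c, a muscle gene activator, 0.551, and Nr2f2, a venous fate factor, 1.40 (1.76 in clusters 1 and 2). The hypoxia factor Epas1 had 0.719.

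Of 16 interferon response genes, 12 were higher and 1 lower in pericyte cells (median log2 1.01), and of 13 antigen presentation genes 7 were higher and 0 lower (0.88). Clusters 1 and 2 had 7 of 8 higher and 1 lower (1.21), and 4 of 7 higher and 0 lower (0.68). Ifitm3, a membrane protein that blocks virus entry, had 1757 and 2249 CPM in pericyte cells, against 851 and 825 CPM in Acta2/Myh11 cells (2.41). B2m, which encodes the constant chain of MHC class I molecules, had 544 and 377 CPM in pericyte cells, against 302 and 191 CPM in Acta2/Myh11 cells (1.98). The heavy chains H2-D1 and H2-K1 had ratios of 1.98 and 1.84, and Ifi27l2a and Ifi27 of 2.09 and 1.68. The exception was Irf1, a transcription factor of the response, at 0.511. Markers of other cell types were also higher in pericyte cells, namely 6 of 7 Schwann cell genes, 5 of 7 spiral ligament fibrocyte genes, 6 of 6 neutrophil genes and 4 of 4 erythroid genes. The 8 Schwann cell markers summed to 5523 and 3513 CPM in pericyte cells against 3034 and 2020 CPM in Acta2/Myh11 cells of the AAV-Isl1 plus noise and noise-only libraries. Their part in the interferon and MHC values was not tested. Over all members of clusters 1 and 2 those markers summed to 1068 and 820 CPM.

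Genes of the immediate early response, which warm enzymatic dissociation of tissue is known to raise, were lower in pericyte cells in 10 of 25 and higher in 1 (median log2 -0.37), and in clusters 1 and 2 in 10 and 1 of 23 (-0.56). Atf3, a stress transcription factor, had 995 and 921 CPM in pericyte cells, against 2444 and 3531 CPM in Acta2/Myh11 cells (0.305). Fos, the most abundant, had 5487 and 6619 CPM in pericyte cells, against 6752 and 9001 CPM in Acta2/Myh11 cells (0.742), and Junb, Jun, Egr1 and Jund had ratios of 0.737, 0.881, 0.795 and 0.964. Chemokines, cytokines and adhesion genes were higher in 9 of 17 and lower in 3 (median 0.64), but in clusters 1 and 2 they were higher in 2 of 5 and lower in 3 (median -1.28). There the NF-kB inhibitor Nfkbia and the cytokine-signalling inhibitor Socs3 had ratios of 0.341 and 0.411. The neutrophil chemokine Cxcl2 had 2.60 over all members and 0.527 in clusters 1 and 2, and Cxcl12 had 2.79 over all. The heat shock gene Hspa1a had 708 and 804 CPM in pericyte cells, against 275 and 309 CPM in Acta2/Myh11 cells (2.56). Of the antioxidant genes 6 of 23 were higher and 0 lower over all members, and in clusters 1 and 2 4 of 14 were higher and 2 lower, Gpx1 and Mt1. The 6 included the glutathione transferase Gsta4 (1.84, and 2.15 in clusters 1 and 2) and the metallothionein Mt3 (1.62, and 1.45).

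The summed contractile genes outside the rule ran in Acta2/Myh11 cells from 2.09 through a median of 30.6 to 96.5 UMIs per 1000 in the AAV-Isl1 plus noise library, and from 1.49 through 43.8 to 118 in the noise-only library. In pericyte cells the medians were 5.38 and 6.73. The Acta2/Myh11 cells of clusters 1 and 2 ran from 6.37 through 41.8 to 96.5 over 220 AAV-Isl1 plus noise cells, and from 6.27 through 53.6 to 118 over 393 noise-only cells. Acta2/Myh11 cells with a UMI of Rgs5 numbered 196 in the AAV-Isl1 plus noise library and 261 in the noise-only library, and those without numbered 193 and 305. Tagln had 3194 and 4466 CPM in the cells with Rgs5 of the AAV-Isl1 plus noise and noise-only libraries, against 6736 and 10130 CPM in those without. Cnn1 had 18.6 and 42.0 CPM in the cells with Rgs5, against 147 and 232 CPM in those without. Eln had 29.7 and 46.4 CPM in the cells with Rgs5, against 111 and 188 CPM in those without. In both libraries Tagln, Cnn1 and Eln were thus lower in cells with Rgs5, and the pericyte genes Higd1b and Ndufa4l2 were higher there. Higd1b had 576 and 650 CPM in cells with Rgs5 against 192 and 251 CPM in those without. Ndufa4l2 had 435 and 464 CPM against 74.9 and 79.1 CPM. Rgs4, also on the pericyte list, went opposite ways in the libraries. It had 286 and 535 CPM in cells with Rgs5 of the AAV-Isl1 plus noise and noise-only libraries, against 335 and 390 CPM in those without. A cell without Rgs5 could enter only through 3 of the other 7 rule genes, Acta2 among them, so the levels of rule genes in those cells are set in part by the rule. Acta2 had 3915 and 5341 CPM in cells with Rgs5 of the AAV-Isl1 plus noise and noise-only libraries, against 7566 and 11328 CPM in those without. Genes that go with Acta2 can follow this choice of cells. Its part in the values of Tagln, Cnn1, Eln, Higd1b and Ndufa4l2 was not tested, and cells outside clusters 1 and 2 were included.

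Members made up a smaller share of kept barcodes in the AAV-Isl1 plus noise library. The share was 3.63% (95% exact interval 3.39 to 3.88) in the AAV-Isl1 plus noise library and 5.34% (5.03 to 5.66) in the noise-only library, a ratio of 0.679 (0.619 to 0.745). The ratio was 0.770 (0.661 to 0.897) for pericyte cells and 0.605 (0.530 to 0.689) for Acta2/Myh11 cells. Members of clusters 1 and 2 had a ratio of 0.506 (0.446 to 0.574), and those of the other clusters 0.985 (0.857 to 1.13). Within clusters 1 and 2 pericyte cells and Acta2/Myh11 cells had the same ratio of 0.493. Endothelial barcodes, chosen by 3 or more of the 5 endothelial genes, had a ratio of 0.836 (0.772 to 0.905), spiral ligament fibrocyte barcodes 1.04 (0.987 to 1.10) and erythroid barcodes 4.15 (3.37 to 5.15). With 1 pooled library per group, a difference in tissue taken or cells recovered cannot be told apart from one of treatment. Of the divided members, pericyte cells were 45.3% (41.6 to 49.0) in the AAV-Isl1 plus noise library and 39.4% (36.3 to 42.6) in the noise-only library, but in clusters 1 and 2 they were 35.5% in each.

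Contractile genes were lower in AAV-Isl1 plus noise members. Of 4611 genes measured in members, 10.1% passed 1.5-fold, 6.07% higher and 4.08% lower in the AAV-Isl1 plus noise library, and the median log2 ratio was 0.01. Of the 21 contractile genes outside the rule, 13 were lower and 0 higher, all 21 had ratios below 1, and the median log2 ratio was -0.72. Tagln had 2664 CPM in AAV-Isl1 plus noise members and 4839 CPM in noise-only members, a ratio of 0.551 (interval 0.528 to 0.574). Crip1 had 2380.1 CPM in AAV-Isl1 plus noise members and 3912 CPM in noise-only members (0.608), and Tpm2 1503 and 2581 CPM (0.582). The rule genes Acta2, Myh11 and Des had ratios of 0.555, 0.586 and 0.592, while Rgs5, Notch3 and Pdgfrb had 0.985, 0.926 and 0.947, and Kcnj8 and Abcc9 0.827 and 1.15. All members hold a smaller share of Acta2/Myh11 cells and of clusters 1 and 2 in the AAV-Isl1 plus noise library, which moves with these values. Within clusters 1 and 2, where 5.68% of 1779 genes passed 1.5-fold (2.36% higher and 3.32% lower), only Cnn1 and the myosin phosphatase inhibitor Ppp1r14a passed 1.5-fold, all 21 genes stayed below 1, and the median was -0.40. In Acta2/Myh11 cells of clusters 1 and 2, where 6.15% of 1170 genes passed 1.5-fold (2.22% higher and 3.93% lower), 1 of 21 was lower, all 21 lay below 1, and the median was -0.33. There Tagln had 8547 CPM in the AAV-Isl1 plus noise library and 10863 CPM in the noise-only library (0.787, interval 0.747 to 0.828). Those cells held medians of 959.5 and 1462 UMIs. After thinning to 1000 UMIs the median cell had 52 contractile UMIs over 100 AAV-Isl1 plus noise cells and 58 over 327 noise-only cells. In pericyte cells of clusters 1 and 2, 170 of all 311 genes measured had ratios above 1 (median log2 0.03), and so did 5 of 7 contractile genes (median 0.07). In all other kept barcodes, where 6.46% of 14436 genes passed 1.5-fold (4.7% higher and 1.77% lower), 2 of 22 contractile genes were lower and the median was -0.14. Taking each kind whole, 13.3% of 1491 genes passed 1.5-fold between the libraries in pericyte cells (5.9% higher and 7.38% lower) and 8.95% of 2591 genes in Acta2/Myh11 cells (5.33% higher and 3.63% lower). Of the contractile genes 4 of 12 were lower in pericyte cells (median -0.44) and 2 of 21 in Acta2/Myh11 cells (median -0.49), and all were below 1.

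**Figure D5:**
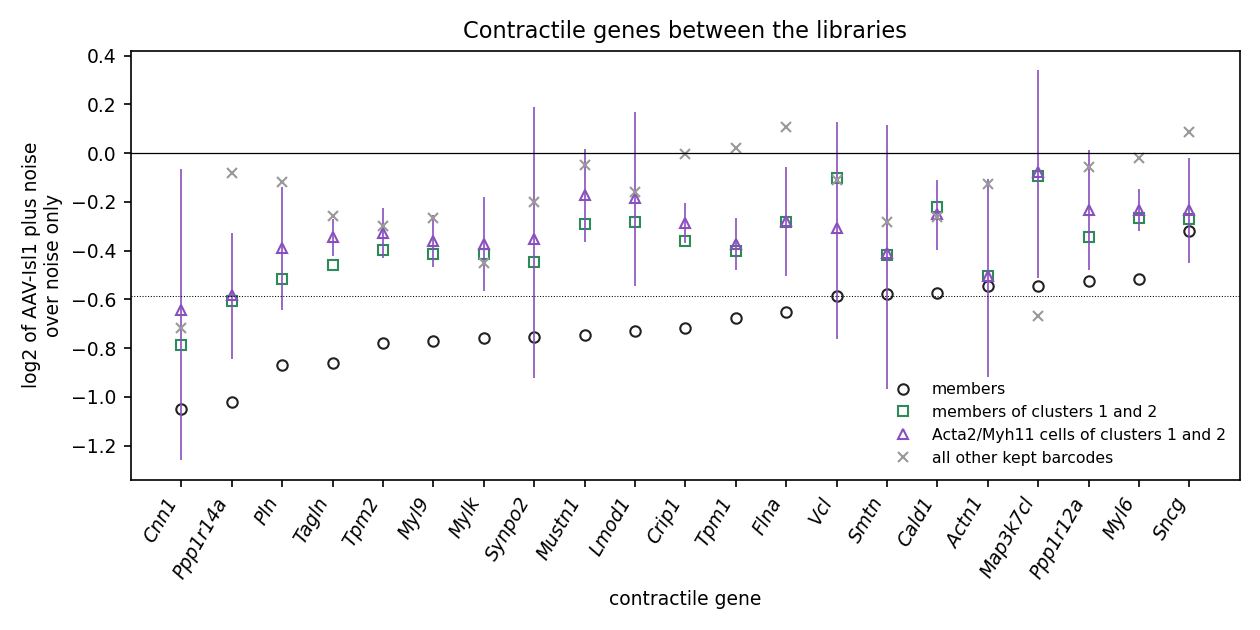
Log2 ratio of AAV-Isl1 plus noise over noise only for 21 contractile genes in members (black circles), members of clusters 1 and 2 (green squares), Acta2/Myh11 cells of clusters 1 and 2 (purple triangles, with exact 95% intervals as lines) and all other kept barcodes (grey crosses). The dotted line marks 1.5-fold lower, and the members' median of -0.72 compares with -0.33 in the Acta2/Myh11 cells of clusters 1 and 2.

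For the counts here and below, 6.07% of all genes measured were higher and 4.08% lower in AAV-Isl1 plus noise members. In clusters 1 and 2 those shares were 2.36% and 3.32%. Of 16 pericyte genes measured, 2 were lower, Vtn and Rgs4, and 0 higher in AAV-Isl1 plus noise members (median log2 -0.34), and in clusters 1 and 2 0 of 13 passed 1.5-fold (-0.11). In pericyte cells taken alone, 6 of 12 were lower, namely Cox4i2, Gucy1b1, Ndufa4l2, Rgs4, Steap4 and Vtn, 0 were higher, 11 of the 12 had ratios below 1 and the median was -0.60. In pericyte cells of clusters 1 and 2 0 of 9 passed 1.5-fold, 7 of the 9 had ratios below 1 and the median was -0.38. Of all 311 genes measured there, 7 were higher and 5 lower, and 141 had ratios below 1. In Acta2/Myh11 cells 1 of 13 was lower, Vtn (median -0.22). Vtn had 500.01 CPM in AAV-Isl1 plus noise members and 752 CPM in noise-only members (0.665), and 724 and 836 CPM in clusters 1 and 2 (0.866). Higd1b, Ndufa4l2 and Ebf1 had ratios of 0.925, 1.03 and 1.01 in clusters 1 and 2, within 1.5-fold. Notch pathway genes were lower in 2 of 9, Hey2 (0.652) and Nrip2 (0.647), and higher in 0. In clusters 1 and 2 the counts were 1 lower, Hey2, and 1 higher, Nrarp, of 7 (median 0.03). Of 20 basement membrane genes 4 were lower and 0 higher, with Col4a1 at 0.657 in members and 0.927 in clusters 1 and 2. There 0 of 11 basement membrane genes passed 1.5-fold (median -0.11). Among 7 receptors 1 was lower, Npy1r, which had 47.8 CPM in AAV-Isl1 plus noise members and 92.6 CPM in noise-only members (0.517, and 0.533 in clusters 1 and 2). Of 25 immediate early genes 2 were lower and 0 higher (median -0.28, against -0.04 in clusters 1 and 2 and -0.27 in all other kept barcodes). The flow-responsive Klf2, 1 of the 2, had 0.605, and Fos had 0.743 in members and 0.928 in clusters 1 and 2.

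The genes with the lowest ratios between the libraries came from several lists or none. Nkd1, an inhibitor of Wnt signals, had 40.3 CPM in AAV-Isl1 plus noise members and 103 CPM in noise-only members (0.390, interval 0.277 to 0.540, and 0.496 in clusters 1 and 2). Wfdc1, a secreted protease inhibitor, had 28.5 and 66.5 CPM (0.429, and 0.402 in clusters 1 and 2). Myom1 (0.464), the small Maf factor Maff (0.397), the immediate early gene Ier5 (0.458) and the kinase Nek9 (0.477) had ratios of 0.485, 0.515, 0.596 and 0.476 in clusters 1 and 2. The integrin Itga8 had 0.408 and 0.667 in clusters 1 and 2 (interval 0.357 to 1.18), and Lmcd1, a LIM protein, 0.454 and 0.951. Lox, the lysyl oxidase that cross-links elastin, had 0.379, with 3 and 22 UMIs in clusters 1 and 2. The chemokines Ccl11 (0.404) and Ccl19 (0.441) lead cluster 5, and had 1 and 12 UMIs and 2 and 2 UMIs in clusters 1 and 2 of the AAV-Isl1 plus noise and noise-only libraries.

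Among genes within the limits for naming, the highest ratios belonged to genes that were more abundant outside the members. Neutrophil genes, which those limits left out, had higher ratios still, with 6 of 6 measured higher and a median log2 ratio of 6.60. Lypd1, a modulator of nicotinic receptors, had 254 CPM in AAV-Isl1 plus noise members and 32.0 CPM in noise-only members (7.93), against 366 and 417 CPM in all other kept barcodes. Calb2, the calcium buffer calretinin, had 673 CPM in AAV-Isl1 plus noise members and 113 CPM in noise-only members (5.97), against 992 and 890.5 CPM in the other barcodes. Il1b, which encodes interleukin 1 beta, had 95.6 and 27.3 CPM (3.50), seen in 21 and 6 members. These and Syt2, Chgb, Tyrobp, Aldh1a3, Dnm3, Ctss, Clec2l and Spock3 are named by the same rule, with ratios between 3.09 and 7.93, and are known from neurons, myeloid cells or epithelium. In clusters 1 and 2 of the AAV-Isl1 plus noise library Calb2 had 28 UMIs and the other 10 genes between 0 and 15. Markers of those cells were also higher in the AAV-Isl1 plus noise library: the 8 neuron markers summed to 1900 CPM in AAV-Isl1 plus noise members and 689 CPM in noise-only members, the 8 macrophage markers to 643 and 275 CPM, and the 8 neutrophil markers to 3267 and 58.7 CPM, with Ngp, Ltf, Retnlg and Cxcr2 at 0 in the noise-only members. Those sums in clusters 1 and 2 were 259 and 172, 198 and 68.5, and 273 and 108 CPM. Calb2 is itself 1 of the 8 neuron markers, and the other 7 summed to 1227 and 576 CPM in members and to 177 and 140 CPM in clusters 1 and 2. Their part in the results was not tested. When only the 411 genes at least 2-fold higher in members than in other barcodes of each library were counted, 0 were higher and 90 (21.9%) lower. Over all 4611 genes measured in members the shares were 6.07% higher and 4.08% lower. Clusters 1 and 2 held 47.6% of AAV-Isl1 plus noise members and 63.8% of noise-only members, and the part of this difference in the count was not tested.

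MHC class I genes ran the other way to the contractile genes. Of 13 antigen presentation genes measured in members, 4 were higher in the AAV-Isl1 plus noise library and 0 lower (median log2 0.28), and in clusters 1 and 2 2 of 8 were higher and all 8 lay above 1 (0.40). H2-K1 had 242 CPM in AAV-Isl1 plus noise members and 97.3 CPM in noise-only members (2.48, interval 2.04 to 3.03). B2m had 408 CPM in AAV-Isl1 plus noise members and 263 CPM in noise-only members (1.55), and H2-D1 411 and 257 CPM (1.60). Their ratios in clusters 1 and 2 were 2.86, 2.09 and 1.46, and in all other kept barcodes 1.70, 1.38 and 1.51. The 3 genes thus stood higher in the AAV-Isl1 plus noise library in and outside the members. Immune cell markers were also higher there within clusters 1 and 2. The T, NK or B cell markers summed to 224 CPM (AAV-Isl1 plus noise) and 52.3 CPM (noise only), those of macrophages to 198 and 68.5, and of neutrophils to 273 and 108. Their part in the MHC values was not tested. Interferon response genes were higher in 5 of 19 and lower in 1 (median -0.12), with Ifi27l2a at 1201 CPM in AAV-Isl1 plus noise members and 795 CPM in noise-only members (1.51, and 2.05 in clusters 1 and 2), and Ifitm3 at 0.905. Nfkbia had 257 CPM in AAV-Isl1 plus noise members and 485 CPM in noise-only members (0.529, and 0.572 in clusters 1 and 2).

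Isl1 itself was rare in these cells. It had 69 UMIs in 31 AAV-Isl1 plus noise members (57.9 CPM) and 28 UMIs in 11 noise-only members (16.6 CPM), a ratio of 3.48 (interval 2.22 to 5.62). All other kept barcodes had 116 and 84.1 CPM, and erythroid barcodes 45.7 and 66.9 CPM. In clusters 1 and 2 Isl1 had 5 UMIs in the AAV-Isl1 plus noise library and 2 in the noise-only library (5.84, interval 0.956 to 61.3). A UMI of Isl1 was seen in 3.77% of AAV-Isl1 plus noise members and 1.03% of noise-only members, against 6.17% and 9.09% of the deeper erythroid barcodes, which should lack the gene. Barcodes with at least 1000 UMIs were thinned to 1000, and the rest left out. The shares were then 2.995% and 0.722% of 434 and 693 members, against 2.39% and 1.83% of 503 and 109 erythroid barcodes. The members thus lay near this background and no expression was read from them. The sources used here do not say whether transcripts of the virus count towards Isl1.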

How the data were processed

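The deposited matrices hold whole-number counts (UMIs) per gene and barcode that the authors made with Cell Ranger, per the submitters' processing notes (Cell Ranger 5.0, STAR, Seurat 3.2.2, mm10) and per the file headers (Cell Ranger 5.0.1). Libraries were 10x 3' libraries, per the labels' protocols. The tables list 32285 genes and no barcode under 500 UMIs, with 40268563 UMIs (AAV-Isl1 plus noise) and 38330528 UMIs (noise only) in all.

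From these counts, Python 3.11.15 (numpy 2.4.6, scipy 1.17.1, pandas 2.3.3, scanpy 1.11.5) was used to apply the barcode filter and the rule, sum UMIs per group and divide by the group's total (CPM). Ratios carry exact conditional binomial 95% intervals, CPM exact Poisson and shares exact Clopper-Pearson intervals, all for counting error only, since the 5 mice of a group were pooled in 1 library. A gene was called past 1.5-fold with at least 100 UMIs; no test was made. The ratio script was tested on simulated data. Doublets were kept. The 21 gene lists and 14 lists of other cell types use the symbols of the files, 5 of them matched through RefSeq synonyms; 38 symbols name more than 1 gene.

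Members, lists and rules were chosen with earlier results of these data known. Named genes were Isl1 and the rule genes; for libraries the 12 highest and 12 lowest ratios, and for pericyte over Acta2/Myh11 cells 15 and 15 past 1.5-fold in each library, with at least 100 UMIs, at least 20 CPM in either group, an interval without 1, at most 25% of UMIs in 1 member and, in the higher group, at least 0.5 times the CPM of other kept barcodes; the 20 highest over other barcodes with at least 200 UMIs; and 2 to 6 members of each list with the most UMIs. Mitochondrial, ribosomal, hemoglobin and immune receptor genes and unnamed gene models were left out. Alternatives changed the filter, doublets, rule, split, depth, weighting and gene minimum. A few genes that these rules name are not reported here.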

Additional observations from a re-analysis of the deposited data

Results flagged for a closer look

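For 3 genes the library ratio (AAV-Isl1 plus noise over noise only) lay past 1.5-fold in opposite directions in the 2 kinds of member. Kcnj10, a potassium channel gene of glia and stria, had ratios of 0.616 in pericyte cells and 1.76 in Acta2/Myh11 cells. Lrpap1, a receptor chaperone, had 0.64 in pericyte cells and 1.59 in Acta2/Myh11 cells, and Nrip1, a nuclear receptor cofactor, 0.656 in pericyte cells and 1.56 in Acta2/Myh11 cells. For 3 others the ratio of pericyte over Acta2/Myh11 cells went opposite ways in the libraries. Fxyd5, a sodium pump regulator, had 0.447 in the AAV-Isl1 plus noise library and 1.88 in the noise-only library. Ndrg4 had 1.6 in the AAV-Isl1 plus noise library and 0.464 in the noise-only library, and Lyz2, a lysozyme gene of myeloid cells, 1.8 in the AAV-Isl1 plus noise library and 0.567 in the noise-only library. Kcnj10 and Lyz2 are on the marker lists of other cell types, and the part of such cells in these ratios was not tested. With 1 library per group, none of these differences was tested.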

How the results depend on the processing

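No paired analysis was possible because each group is 1 pooled library. The ratio of member shares (0.679) was 0.600 under a stricter barcode filter (500 genes, 10% mitochondrial UMIs) and 0.520 without members with 3 markers of another cell type. It was 0.531 with 4 of the 8 rule genes, 0.506 in clusters 1 and 2 and 0.468 with barcodes thinned to 1000 UMIs. Thinning left out barcodes under 1000 UMIs, here and below. The pericyte share of divided members was 37.7% (AAV-Isl1 plus noise) and 31.5% (noise only) under that filter, 35.5% in each library in clusters 1 and 2, 29.9% and 18.9% thinned, and 32.7% and 29.0% where pericyte cells needed 2 UMIs of Kcnj8 and Abcc9. It was 39.7% (AAV-Isl1 plus noise) without members with other markers and 50.9% under the stricter split.

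Between libraries, 280 genes were higher and 188 lower. The counts were 34 and 65 without members with other markers, 99 and 120 with 4 rule genes, 42 and 59 in clusters 1 and 2, 602 and 391 at 50 UMIs, 53 and 52 at 300 UMIs, 88 and 110 in pericyte cells, 138 and 94 in Acta2/Myh11 cells, 0 and 90 for genes 2-fold above other barcodes, and 92 higher when thinned. Between the kinds, 552 were higher and 406 lower in pericyte cells. There the counts were 278 higher without members with other markers, 227 and 243 with 4 rule genes, 255 higher in clusters 1 and 2, 199 and 255 thinned, 1107 higher at 50 UMIs, 135 and 143 at 300 UMIs, 67 and 213 for genes 2-fold above other barcodes, 149 and 164 in the AAV-Isl1 plus noise library alone and 341 higher in the noise-only library alone.

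Directions turned for Chgb (library log2 -0.15) and Il1b (-0.83) without members with other markers; for Chgb (-1.10), Dnm3 (-0.36) and Ccl19 (1.22) in clusters 1 and 2; and for Nrip2 (0.50) and Slc12a2 (-0.10) in pericyte cells. For pericyte over Acta2/Myh11 cells directions turned for Cxcl2 without members with other markers (-0.32, 7 and 22 UMIs) and in clusters 1 and 2 (-0.92, 7 and 43 UMIs). The chemokine list median also turned in clusters 1 and 2 (-1.28, 5 genes). The cause was not tested. Of 3341 other alternative values, 2564 stayed within the counting interval of the main value, 766 moved beyond it and 11 turned. For a list, that interval was the median half-width of its genes' intervals. Leaving out doublets at Scrublet's automatic threshold removed no barcode, so the values of that setting equal the main ones. They are counted among the 2564 and say nothing about stability. The clusters, the 2-fold limit, the 2-UMI split and the highest doublet scores were chosen after seeing the data.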
